A study of Mus musculus with 9 samples.

Results

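The NF-kappaB system of transcription factors and their inhibitors was followed across dendritic cells sorted from mouse spleen. The set comprised 10 genes, chosen by name. Nfkb1, Nfkb2, Rel, Rela and Relb code for the subunits, and Nfkbia, Nfkbib and Nfkbie for inhibitors of the IkappaB family. Nfkbiz codes for a nuclear cofactor of that family and Tnfaip3 for a feedback inhibitor. Of these 10, 9 were matched to a transcript cluster (the probes of a gene locus) of the arrays, among 19938 genes in all. Nfkb1 was not analysed here. Each of the 9 had 1 cluster, and all 9 passed the brightness rule that left 10728 genes for testing.

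RNA was measured on 9 Affymetrix gene arrays, and all mice were of strain 129SvEv/Tac. Conventional dendritic cells (cDC) of the cDC2 subset, which mainly presents antigen to CD4 T cells, gave 8 arrays. They came from mice lacking the transcription factors BATF and BATF3 (genotype Batf-/- Batf3-/-, DKO) and from wild type mice (WT), either activated or resting, with 2 arrays in each of the 4 groups. Activation meant 1 h with IFN-gamma (100 ng/ml) followed by 3 h with LPS of E. coli (1 µg/ml), a bacterial ligand of the receptor Tlr4. Resting WT cDC1, which cross-present antigen to CD8 T cells, gave a single array with no replicate. The labels name no Cre driver or tissue for the deletion, and they leave unsaid whether replicates are separate mice and whether resting cells were cultured. The p-values thus measure a spread between samples that may be technical. The purpose stated for the study was to find genes controlled by BATF proteins in these cells.

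As background, NF-kappaB factors are dimers of Rel-family proteins that are held in the cytoplasm by IkappaB proteins. Signals from receptors such as Tlr4 activate the IkappaB kinase (IKK) complex, which marks IkappaB for degradation and frees the dimers to enter the nucleus. Several IkappaB genes and Tnfaip3 are themselves NF-kappaB targets, so that the pathway rebuilds its own inhibitors. In dendritic cells it controls cytokines and co-stimulatory molecules. The arrays measured RNA and not the location or cleavage of these proteins.

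The labels were checked first. Batf lay between 5.31 and 5.44 (log2 intensity) on the 4 DKO arrays and between 6.74 and 9.07 on the 4 WT cDC2 arrays, and Batf3 between 6.43 and 7.17 on the DKO arrays and between 7.58 and 9.92 on the WT cDC2 arrays. Where their probes lie relative to the deleted parts is not known. The cDC1 markers Xcr1 and Clec9a read 9.33 and 8.67 on the cDC1 array, against at most 4.73 and 4.32 on the cDC2 arrays. Of the 7 cDC1 markers, 5 were higher in cDC1 than in resting WT cDC2 (adjusted p below 0.05 by limma) and 0 lower. Cadm1 read 10.33 on the cDC1 array, against up to 9.84 on the cDC2 arrays. Tlr3 read 6.35 on the cDC1 array, above resting WT cDC2 (5.57 and 6.24). Activated WT cDC2 replicate 2 (7.035) and activated DKO replicate 1 (6.37) were higher than the cDC1 array. The cDC2 genes Irf4 and Sirpa read 5.13 and 7.05 on the cDC1 array, against 9.37 to 11.02 and 9.05 to 10.30 on the cDC2 arrays. Of the cDC2 markers, Itgam, Clec4a4 and Clec10a were not above the brightness threshold (5.94 on the log2 scale) in any group. In bulk RNA of this kind, fewer cells of a type and less RNA per cell cannot be told apart.

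Promoter windows from 250 bases before to 50 bases after the start were taken from RefSeq (build GRCm38.p6), and 7 of the 10 genes had at least 1. They were searched on both strands for the NF-kappaB consensus, a motif of 10 bases. Windows of 4 genes are shown as examples with several matches, 1 match and none. Several were in the feedback gene Tnfaip3 (the first of its 2 windows) and the subunit gene Nfkb2 (the first of its 3 windows). Nfkbia had 1 and Nfkbib none in the windows shown. Each is written 5′ to 3′ on the strand of the gene, with the bases covered by a consensus match in capitals. The first, of Tnfaip3, is chr10:19015361-19015660 (minus strand), that of Nfkbia chr12:55492598-55492897 (minus strand), that of Nfkb2 chr19:46304487-46304786 (plus strand) and that of Nfkbib chr7:28766595-28766894 (minus strand).
Tnfaip3: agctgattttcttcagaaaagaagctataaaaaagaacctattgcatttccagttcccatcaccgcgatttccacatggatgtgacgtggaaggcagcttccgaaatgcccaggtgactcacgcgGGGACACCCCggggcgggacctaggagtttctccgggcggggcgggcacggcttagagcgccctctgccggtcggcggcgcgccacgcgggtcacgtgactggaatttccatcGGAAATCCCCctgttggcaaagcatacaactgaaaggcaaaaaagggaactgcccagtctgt
Nfkbia: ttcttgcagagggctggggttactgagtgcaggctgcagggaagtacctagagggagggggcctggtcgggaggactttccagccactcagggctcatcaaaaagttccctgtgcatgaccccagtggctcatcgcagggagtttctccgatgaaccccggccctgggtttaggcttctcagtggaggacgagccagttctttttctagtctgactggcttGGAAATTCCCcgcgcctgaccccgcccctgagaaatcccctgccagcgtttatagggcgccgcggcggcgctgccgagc
Nfkb2: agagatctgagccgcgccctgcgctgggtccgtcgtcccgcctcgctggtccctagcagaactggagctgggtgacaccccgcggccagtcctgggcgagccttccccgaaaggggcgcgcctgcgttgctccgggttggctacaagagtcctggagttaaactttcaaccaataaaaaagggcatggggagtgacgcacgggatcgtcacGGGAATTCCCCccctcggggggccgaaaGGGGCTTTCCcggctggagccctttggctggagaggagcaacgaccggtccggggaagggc
Nfkbib: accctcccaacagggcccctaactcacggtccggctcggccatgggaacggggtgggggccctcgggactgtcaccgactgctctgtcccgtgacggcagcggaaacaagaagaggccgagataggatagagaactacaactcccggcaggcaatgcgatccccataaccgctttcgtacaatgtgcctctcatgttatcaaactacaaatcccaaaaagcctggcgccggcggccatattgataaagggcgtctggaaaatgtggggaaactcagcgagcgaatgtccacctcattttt

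In this window of Tnfaip3 the matches GGGACACCCC and GGAAATCCCC began 125 and 12 bases before the start, and its other window held none. The match in Nfkbia, GGAAATTCCC, began 29 bases before it. In this window of Nfkb2, overlapping matches covered GGGAATTCCCC from 39 bases before the start, and GGGGCTTTCC followed at 11. Rel had overlapping matches over GGGAAATCCCC from 92 bases before its start, and Nfkbie had GGGGGATTCC from 106 before. In all, 5 of the 7 genes with a window held a match, the exceptions being Rela and Nfkbib. Over all genes with a window, 5.14% of 27025 did. A match describes the letters and was not measured as a binding site in these cells, and its absence says only that these letters are not in this window.

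The first comparison asked how each gene stood after activation, in each genotype. Nfkbiz, which codes for the nuclear IkappaB-zeta, a cofactor needed for induction of Il6 and Il12b, rose 5.95-fold in DKO and 4.21-fold in WT cDC2. Tnfaip3, which codes for a ubiquitin-editing enzyme that shuts off signalling to IKK, rose 1.92-fold in each genotype. Nfkbib, which codes for IkappaB-beta, rose in WT cells. Of the 9 genes, 2 rose in DKO and 3 in WT cells and 0 fell. Among all genes tested, 5.82% were higher in DKO and 3.97% in WT cells. The median log2 difference was 0.43 over the 9 genes in DKO and 0.51 in WT cells, against -0.09 and -0.07 over all genes tested.

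Nfkbiz read 10.33 and 10.29 (log2 intensity, replicates 1 and 2) in activated DKO cDC2, against 7.95 and 7.51 in resting DKO cDC2. The WT cDC2 values were 10.02 and 10.32 when activated, against 8.14 and 8.04 at rest. All 4 activated arrays lay well above all 4 resting arrays. The log2 difference was 2.57 ± 0.17 (SE; adjusted p = 0.0018) in DKO and 2.07 ± 0.17 (adjusted p = 0.00375) in WT cells, from limma over all genes. The 95% intervals of the fold ran from 4.47 to 7.93 in DKO and from 3.16 to 5.61 in WT cells. This call held when each array was left out in turn.

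Tnfaip3 read 11.72 and 11.55 in activated DKO cDC2, against 10.77 and 10.61 in resting DKO cDC2. WT cDC2 gave 11.60 and 11.74 when activated, against 10.80 and 10.65 at rest. The activated arrays were again all higher than the resting ones, and the replicates of a group lay close together. The difference was 0.94 ± 0.12 in both genotypes (adjusted p = 0.00785 in DKO and 0.0108 in WT). The DKO call ended without resting DKO replicate 2 (adjusted p = 0.0618) or activated DKO replicate 1 (0.0535), and the WT call without resting WT replicate 1 (0.0504) or activated WT replicate 2 (0.0776).

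**Figure D1:**
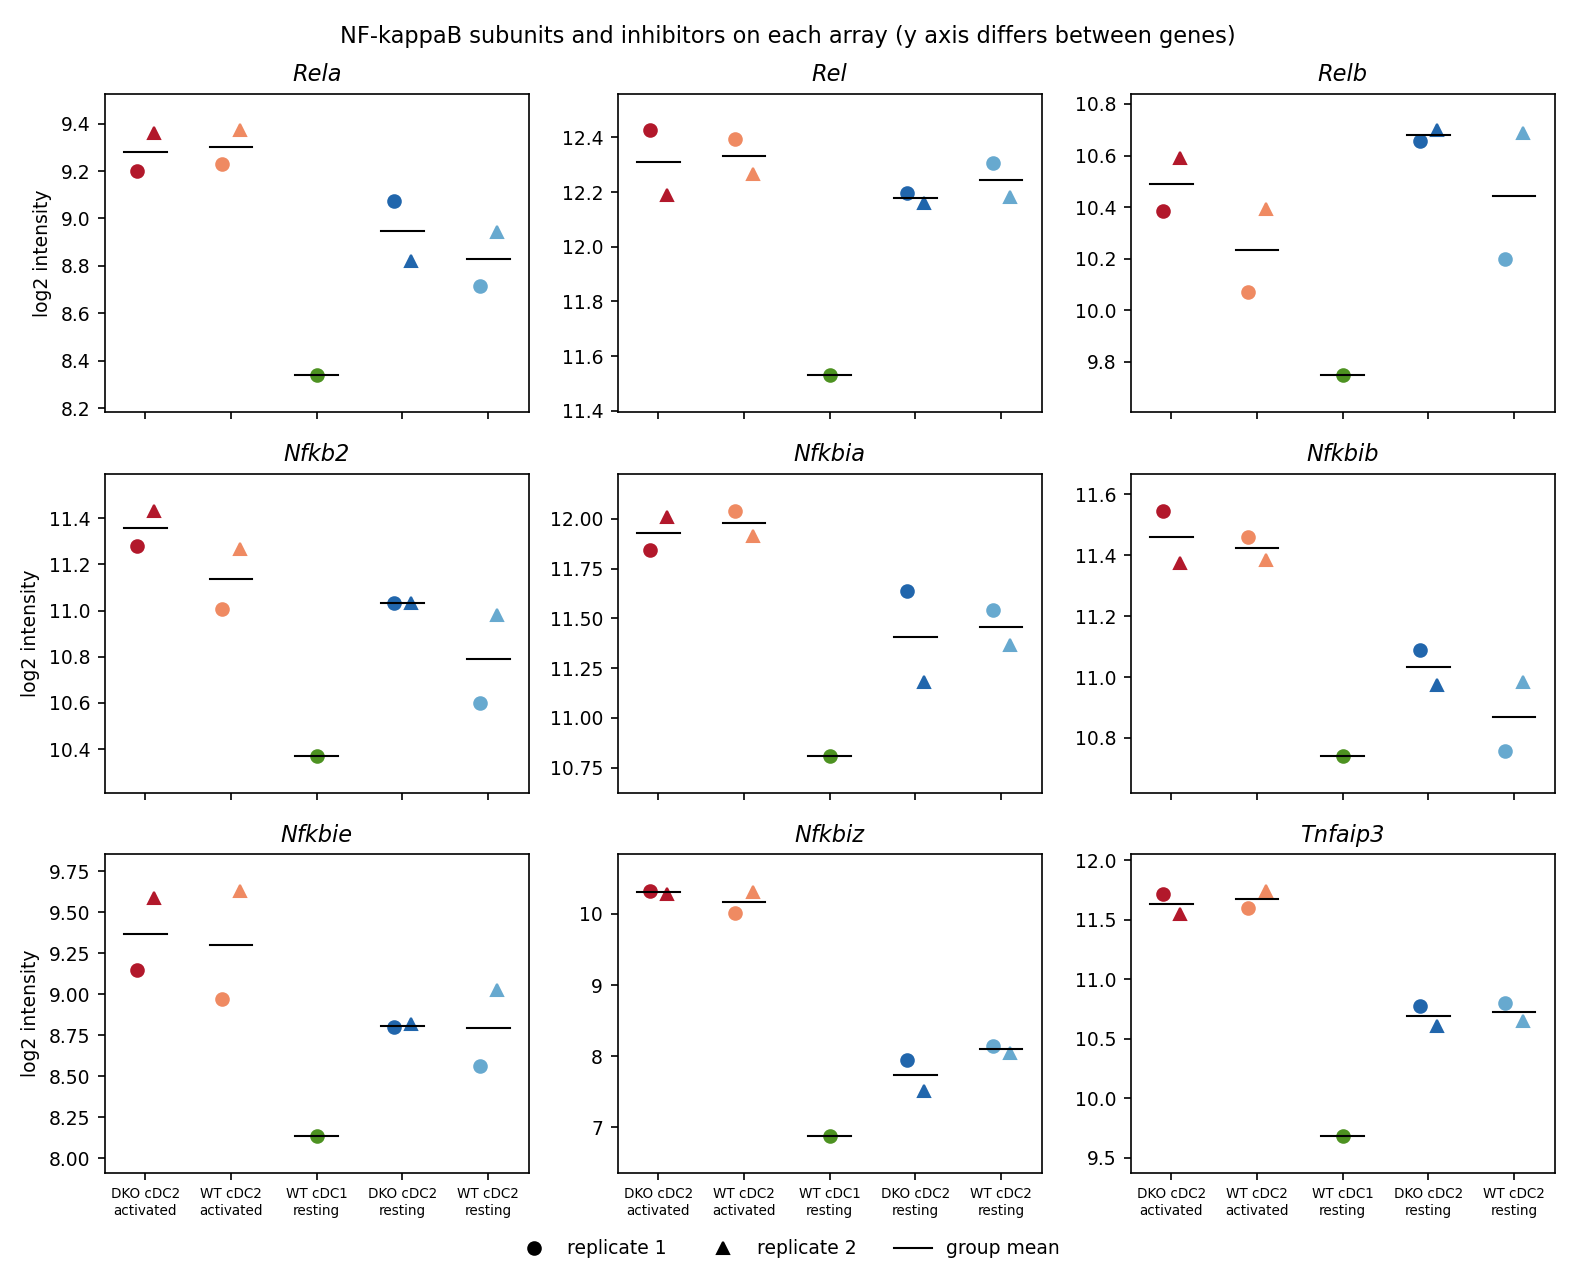
Log2 intensity (vertical axis, which differs between genes) of the 9 genes on each of the 9 arrays, by group on the horizontal axis; circles are replicate 1, triangles replicate 2 and horizontal bars the group means. Nfkbiz and Tnfaip3 have all activated arrays well above the resting ones, and the cDC1 array is the lowest in every panel, barely so for Nfkbib.

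The inhibitors of the IkappaB family, Nfkbia, Nfkbib and Nfkbie, moved less. Nfkbia, which codes for IkappaB-alpha, the inhibitor rebuilt fastest after signalling, read 11.85 and 12.01 in activated DKO cDC2, against 11.64 and 11.18 in resting DKO cDC2. In WT cDC2 it read 12.04 and 11.91 when activated, against 11.54 and 11.37 at rest. The groups did not overlap in either genotype. The difference was 0.52 ± 0.17 in both (adjusted p = 0.0924 in DKO and 0.0997 in WT) and did not pass. With the replicate number as a block it passed in both (adjusted p = 0.0296 and 0.031). Without the block, the DKO difference was 0.29 when resting DKO replicate 2 was left out.

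Nfkbib read 11.55 and 11.38 in activated DKO cDC2, against 11.09 and 10.97 in resting DKO cDC2. The WT cDC2 values were 11.46 and 11.39 when activated, against 10.76 and 10.98 at rest. The activated arrays were above the resting ones in both genotypes. The difference of 0.55 ± 0.12 passed in WT (adjusted p = 0.0395), and that of 0.43 ± 0.12 in DKO did not (adjusted p = 0.0621, or 0.0263 with the block). The WT call was lost when any 1 of the 8 cDC2 arrays was left out (adjusted p from 0.0564 to 0.169) and with quantile normalization (0.42, adjusted p = 0.0945).

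Nfkbie, which codes for IkappaB-epsilon, read 9.15 and 9.58 in activated DKO cDC2, against 8.80 and 8.82 in resting DKO cDC2. WT cDC2 gave 8.97 and 9.63 when activated, against 8.56 and 9.02 at rest. The DKO groups did not overlap, and the WT groups did. The differences of 0.56 ± 0.27 in DKO and 0.51 ± 0.27 in WT did not pass (adjusted p = 0.213 and 0.26), and with the block both did (adjusted p = 0.0272 and 0.0394). When 1 array was left out of the fit without the block, the difference lay between 0.34 (without activated DKO replicate 2) and 0.78 in DKO cells, and between 0.18 (without activated WT replicate 2) and 0.84 (without activated WT replicate 1) in WT cells. Replicate 2 was above replicate 1 in all 4 cDC2 groups, by 0.02 to 0.66.

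Among the subunits, none passed in either genotype. Rela, which codes for the main activating partner of the classical dimer, read 9.20 and 9.36 in activated DKO cDC2, against 9.07 and 8.82 in resting DKO cDC2. In WT cDC2 it read 9.23 and 9.37 when activated, against 8.71 and 8.94 at rest. The groups were apart in both genotypes, by 0.34 ± 0.14 in DKO (adjusted p = 0.161) and 0.47 ± 0.14 in WT (adjusted p = 0.0814). With the block the WT difference passed (adjusted p = 0.0312).

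Nfkb2 codes for a precursor that is cleaved to the partner of RelB in the alternative pathway and that also acts as an inhibitor while uncleaved. It read 11.28 and 11.43 in activated DKO cDC2, against 11.03 and 11.03 in resting DKO cDC2. The WT cDC2 values were 11.01 and 11.26 when activated, against 10.60 and 10.98 at rest. Activated arrays were higher in both genotypes. The differences were 0.32 ± 0.16 in DKO (adjusted p = 0.221) and 0.34 ± 0.16 in WT (adjusted p = 0.201, or 0.0473 with the block). Without the block, the WT difference was 0.15 when resting WT replicate 1 was left out and 0.53 when replicate 2 was.

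Rel, which codes for c-Rel, a subunit used mainly by blood cells, read 12.43 and 12.19 in activated DKO cDC2, against 12.19 and 12.16 in resting DKO cDC2. WT cDC2 gave 12.40 and 12.27 when activated, against 12.31 and 12.18 at rest. The groups lay within the spread of their replicates in WT cells. The differences of 0.13 ± 0.12 in DKO and 0.09 ± 0.12 in WT (adjusted p = 0.489 and 0.665) turned to -0.015 and -0.049 with quantile normalization, so that Rel had no settled direction.

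Relb, which codes for the subunit that marks mature dendritic cells, was the single member whose difference was below 0 in both genotypes. It read 10.39 and 10.59 in activated DKO cDC2, against 10.66 and 10.70 in resting DKO cDC2. In WT cDC2 it read 10.07 and 10.39 when activated, against 10.20 and 10.69 at rest. The DKO groups did not overlap and the WT groups did. The differences were -0.19 ± 0.19 in DKO and -0.21 ± 0.19 in WT (adjusted p = 0.546 and 0.506), and neither passed with the block (0.249 and 0.211).

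**Figure D2:**
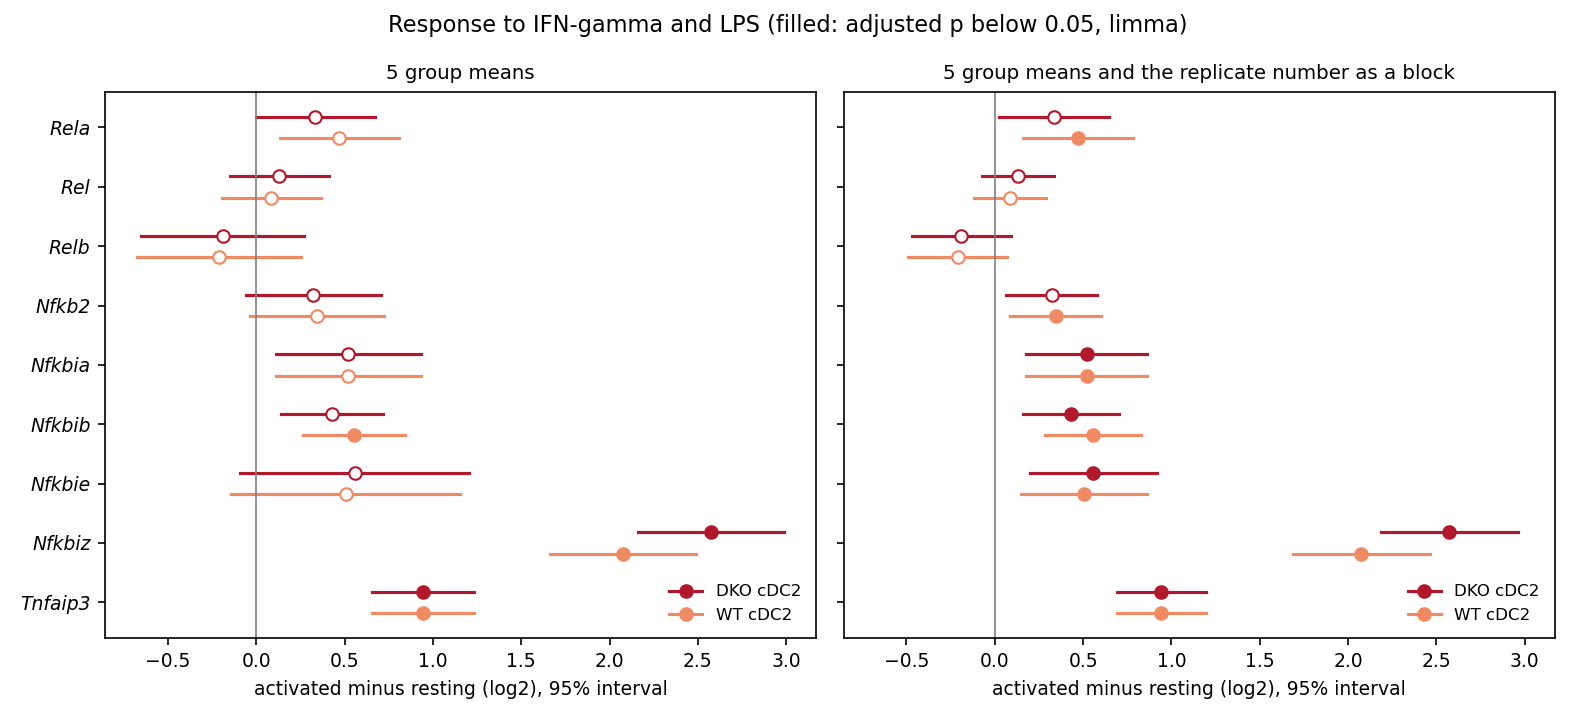
Log2 difference of activated minus resting cDC2 (horizontal axis) with 95% intervals for the 9 genes, DKO above WT for each, from the limma fit of 5 group means (left panel) and with the replicate number as a block (right panel); filled points passed adjusted p below 0.05 and the vertical line marks 0. Nfkbiz lies at 2.57 in DKO and 2.07 in WT cells, and Relb is the 1 gene left of 0 in both.

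Arrays with the same replicate number can be set against each other, as these numbers went together over all genes. Of the 9 genes, 8 were higher on the activated array in all 4 same-numbered pairs, which 22.1% of all genes tested were. Rel was among the 8, at 0.03 to 0.23, though its direction did not hold with quantile normalization. Relb was lower in all 4, as were 42.5% of all genes. With the replicate number as a block in the limma fit, 5 of the 9 genes rose in DKO and 7 in WT cells, while 13% and 11.4% of all genes did. No member fell in that fit. Without regard to pairs, the arrays of activated and resting cells did not overlap for 7 genes that were higher in DKO (21% of all genes) and for 6 in WT cells (19.9%), and for Relb, lower in DKO (39.3%).

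Some marker lists of other cells moved with activation. The list of plasmacytoid dendritic cell markers, which holds the interferon-responsive gene Bst2, had 1 of its 3 tested members higher and 1 lower in each genotype. Its summed intensity over the 5 genes on the array was 3529 to 5675 in activated against 1324 to 3327 in resting DKO arrays, and 3583 to 6698 in activated against 1998 to 6274 in resting WT arrays. Of the macrophage markers 1 of 6 tested fell in DKO and 0 in WT cells, and their sum was 716 to 856 in activated against 1036 to 1237 in resting DKO arrays, and 863 to 914 against 1038 to 1058 in WT arrays. Of the monocyte markers 1 of 3 fell in each genotype, with a sum of 320 to 364 in activated against 454 to 529 in resting DKO arrays, and 438 to 558 against 579 to 755 in WT arrays. The cDC1 markers had 0 of 7 past the threshold in either genotype, and their sum was 2362 to 2780 in activated against 1234 to 1834 in resting DKO arrays, with overlap in WT cells. Their brightest gene on the DKO arrays, Cd24a, read 10.83 and 11.21 when activated, against 10.33 and 9.73 at rest. Xcr1 and Clec9a stayed below 5 on these arrays. The markers shared by both subsets also had 0 of 5 past it, and summed to 1788 to 2229 in activated against 3331 to 3642 in resting DKO arrays, and to 2335 to 2510 against 3637 to 3695 in WT arrays. Of the 4 tested cDC2 markers, 1 rose and 2 fell in DKO, and 0 rose and 2 fell in WT cells. Their sum over 7 genes was 2538 to 3078 in activated against 2164 to 2318 in resting DKO arrays, with overlap in WT cells. In DKO arrays Irf4 read 10.77 and 11.02 when activated, against 10.03 and 9.37 at rest. The mean log2 intensity of the 7 genes was lower there after activation, at 6.76 to 6.78 against 6.99 to 7.20. The part of these lists in the results was not tested.

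The second question was whether the responses differed between the genotypes. By limma 0 of the 9 genes and 0 of the 10728 genes tested passed for the difference between the DKO and WT responses, with 0 and 121 (1.13%) at an unadjusted p under 0.05. With the block, 0 genes passed and 368 were under that unadjusted level. The widest gap was that of Nfkbiz, whose response was larger by 0.50 ± 0.24 in DKO cells (95% interval from -0.09 to 1.08, adjusted p = 1). For Tnfaip3 the interval ran from -0.41 to 0.41, and for Nfkbia from -0.58 to 0.58. Gaps of that size cannot be told from 0 with 2 arrays a group.

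The third question was whether the genotypes differed at a given state, which bears on whether loss of BATF and BATF3 goes with another level of the NF-kappaB genes. None of the 9 genes passed in activated cells, at rest or in the mean of both states by limma, with 0 at an unadjusted p under 0.05 in each. Of all genes tested, 5.95%, 6.59% and 10.8% were under that unadjusted level. In each of the 3 comparisons 2 genes of the 10728 passed (0.0186%). The median difference of the 9 genes was 0.04 in activated cells, 0.01 at rest and 0.04 in the mean, against 0.01 over all genes tested in each. The estimates ran from -0.05 to 0.26 in activated cells and from -0.36 to 0.24 at rest. The 95% intervals reached from -0.58 to 0.72 in activated cells and from -0.78 to 0.70 at rest.

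In activated cells the arrays of the 2 genotypes did not overlap for 1 gene of the 9, Nfkb2, which was higher in DKO, as were 16.4% of all genes tested. At rest Nfkb2 was higher in DKO without overlap (17.7% of all genes) and Nfkbiz lower (13.4%). Nfkb2 differed by 0.22 ± 0.16 in activated cells and by 0.24 ± 0.16 at rest. Nfkbiz stood at 0.14 ± 0.17 in activated cells and at -0.36 ± 0.17 at rest (adjusted p = 1 and 0.817). Its DKO arrays thus lay below the WT arrays at rest and overlapped them after activation.

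Over both states, Relb was higher in DKO by 0.25 ± 0.14 and Nfkb2 by 0.23 ± 0.11 (adjusted p = 0.588 and 0.535, or 0.143 and 0.136 with the block). These 2 genes were the members higher in DKO in all 4 same-numbered pairs, and 18.9% of all genes tested were. A share of 2 in 9 is close to that background. The block called 61 genes (0.569%) in activated cells, 79 (0.736%) at rest and 599 (5.58%) in the mean of both states, and none of the 9 genes was among them. At an unadjusted p under 0.05 it had 0, 0 and 2 of the 9, beside 1567, 1696 and 2506 of all 10728 genes tested.

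**Figure D3:**
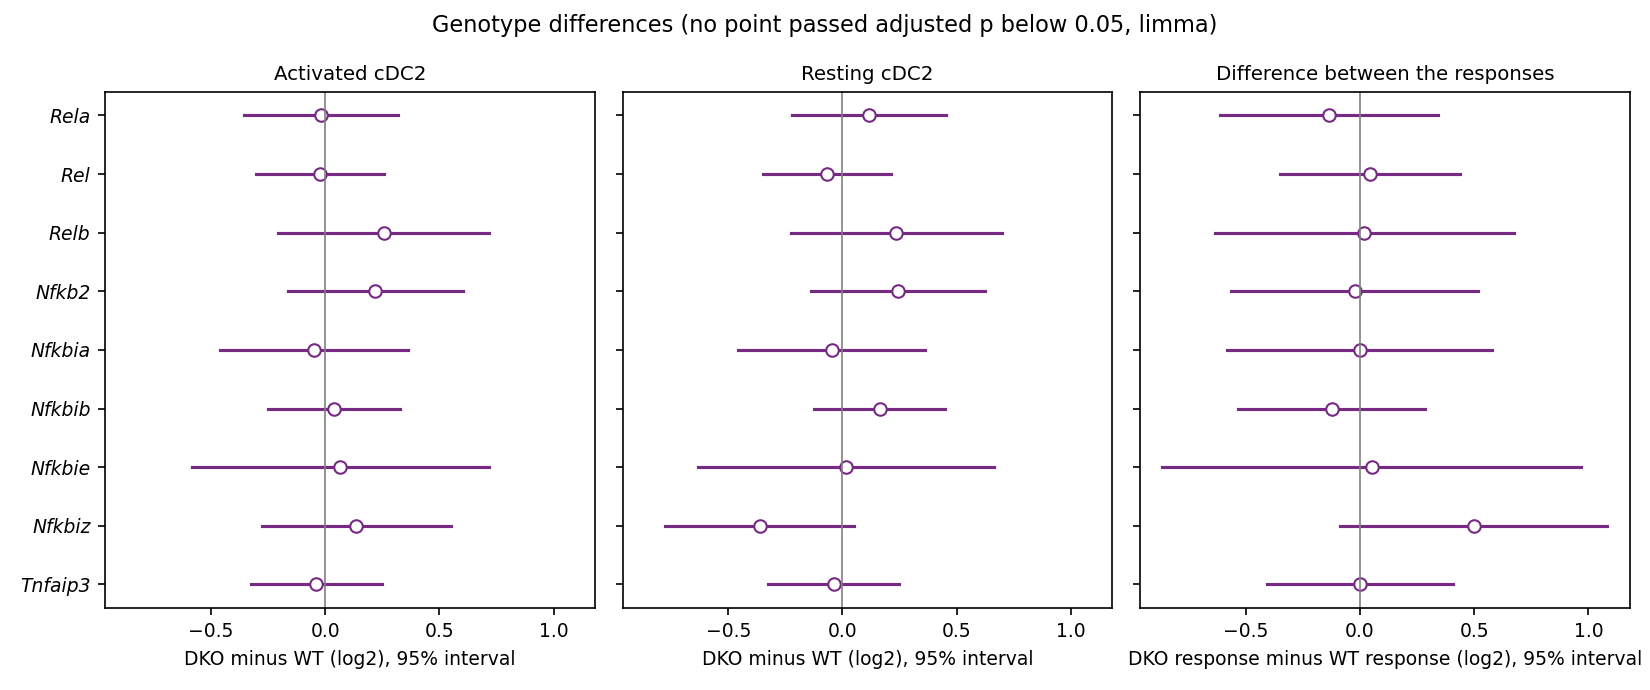
Log2 difference of DKO minus WT (horizontal axes) with 95% intervals for the 9 genes in activated cDC2 (left panel) and resting cDC2 (middle panel), and the DKO response minus the WT response (right panel); the vertical lines mark 0 and no point passed adjusted p below 0.05. Every interval crosses 0, and the points farthest from it are those of Nfkbiz, at -0.36 at rest and 0.50 for the response.

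The fourth comparison set resting WT cDC1 against resting WT cDC2 (1 array against 2). It shares the resting WT cDC2 arrays with the WT activation and resting genotype comparisons. In cDC1 Nfkbiz, Tnfaip3 and Rel fell, which made 3 of the 9 genes, and 0 rose. Of all genes tested 6.56% were lower. The cDC1 array was below all 8 cDC2 arrays, activated ones included, for all 9 genes, which held for 22% of all genes. For Nfkbib this was nearly a tie, with 10.74 in cDC1 against 10.76 on resting WT cDC2 replicate 1. The median difference was -0.66 over the 9 genes and -0.01 over all genes tested. With 1 cDC1 array, the test takes its spread from the cDC2 groups.

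Nfkbiz read 6.88 in cDC1, against 8.14 and 8.04 in resting WT cDC2, a difference of -1.22 ± 0.21 (adjusted p = 0.0155). Tnfaip3 read 9.68 in cDC1, against 10.80 and 10.65, a difference of -1.05 ± 0.15 (adjusted p = 0.00829). Rel, which activation left with no settled direction, read 11.53 in cDC1, against 12.31 and 12.18 in resting WT cDC2, a difference of -0.72 ± 0.14 (adjusted p = 0.0238). The Tnfaip3 call held when each cDC2 array was left out. The Nfkbiz call was lost without resting WT replicate 1 (adjusted p = 0.0604). The Rel call was lost without resting DKO replicate 1 or 2 and without resting WT replicate 1 or 2 (adjusted p up to 0.0863).

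The other members read 8.34 for Rela, 9.75 for Relb, 10.37 for Nfkb2, 10.81 for Nfkbia, 10.74 for Nfkbib and 8.14 for Nfkbie in cDC1. The differences from resting WT cDC2 lay between -0.69 for Relb and -0.13 for Nfkbib and did not pass (adjusted p from 0.0933 to 0.632). With the block, Relb (-0.69 ± 0.23 in the fit without it, adjusted p = 0.0119 with it), Nfkb2 (-0.42, 0.0499), Nfkbia (-0.65, 0.0308) and Nfkbie (-0.66, 0.0335) passed as well. That made 7 of 9 lower, against 17.4% of all genes. Rela stayed short of it (adjusted p = 0.0545). The block takes the lone cDC1 array as lying midway between the replicate numbers, so that its own offset counts as 0. The 4 added calls rest on that placement. Without the block, leaving out resting WT replicate 2 gave -0.45 for Relb, -0.23 for Nfkb2 and -0.43 for Nfkbie.

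Markers of other cells moved here too. Of the tested markers of cDC2, the subset compared, 4 of 4 were lower in cDC1, and the summed intensity of its 7 genes was 359 in cDC1 against 2191 to 2576 in resting WT cDC2. Of the tested plasmacytoid markers 2 of 3 were lower, with a sum over 5 genes of 1582 in cDC1 against 1998 to 6274 in resting WT cDC2. Of the monocyte markers 2 of 3 were lower, with a sum of 463 in cDC1 against 579 to 755 in resting WT cDC2. Of the macrophage markers 1 of 6 was lower, with sums of 934 in cDC1 and 1038 to 1058 in resting WT cDC2. Other lists had 0 members past the threshold and a higher sum in cDC1. These were the B and plasma cell list (251.5 in cDC1 against 179.5 to 183.0), the T cell list (252 against 195 to 224) and the neutrophil list (810.0 against 584 to 668). Their part in the result was not tested.

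The members were then set beside the rest of the pathway, in 6 lists of 89 genes of which 78 were tested. In activated DKO cDC2, 15 of the 78 were higher and 6 lower, against 5.82% and 7.9% of all genes tested. In WT cDC2 12 were higher and 2 lower, against 3.97% and 6.57%. Known NF-kappaB target genes made up most of the rise: 9 of 23 tested were higher in each genotype and 0 lower, with medians of 0.73 in DKO and 0.47 in WT cells. Il6, a cytokine gene, read 9.65 and 9.52 in activated DKO cDC2, against 5.47 and 5.04 at rest, and 9.44 and 9.59 in activated WT cDC2, against 5.78 and 5.63 at rest. Its differences were 4.33 ± 0.16 in DKO and 3.81 ± 0.16 in WT (adjusted p = 0.00024 and 0.000518). Il12b, which codes for a subunit of interleukin-12, rose by 3.01 ± 0.29 in DKO and 2.27 ± 0.29 in WT cells. Tnf, a cytokine gene, rose by 3.02 ± 0.64 in DKO and 2.74 ± 0.64 in WT cells, and the co-stimulatory gene Cd80 by 1.18 ± 0.12 in DKO and 1.04 ± 0.12 in WT cells. The WT call of Tnf was lost whichever of the 8 cDC2 arrays was left out (adjusted p from 0.0569 to 0.162), with no brightness filter (0.0783) and with quantile normalization (0.0608). Its DKO call was lost without resting DKO replicate 2 or either activated DKO array (adjusted p up to 0.156) and with no brightness filter (0.0541). In WT cells the Il12b call was lost without either activated WT array (adjusted p up to 0.0662), and that of Cd80 without resting replicate 1 or activated replicate 2 (up to 0.0581).

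Upstream of the dimers, the receptors and adaptors had 3 of 18 higher and 2 lower in DKO and 2 and 0 in WT cells. Myd88, the adaptor of Tlr4 signalling, rose by 1.45 ± 0.24 in DKO and 1.29 ± 0.24 in WT cells. Tnfrsf1a, a receptor for TNF, rose by 1.32 ± 0.20 in DKO and 1.22 ± 0.20 in WT cells. In DKO cells Cd40, a co-stimulatory receptor of the TNF receptor family, also rose, by 1.54 ± 0.37. Ticam1, another adaptor of Tlr4, fell by 0.68 and Tnfrsf1b, another TNF receptor gene, fell by 0.63 there. Whether these 3 differed from WT was covered by the test of the responses, in which 0 genes passed. The Cd40 call was lost without any 1 of the 4 DKO arrays or either activated WT array (adjusted p up to 0.17), with no brightness filter (0.0724) and with quantile normalization (0.0591). Of the fits that left out 1 of the 8 cDC2 arrays, the DKO calls passed in 4 for Myd88, 6 for Tnfrsf1a and 5 each for Ticam1 and Tnfrsf1b (adjusted p up to 0.098), and the WT calls in 3 for Myd88 and 4 for Tnfrsf1a (up to 0.136). Each of these losses came on leaving out an array of the genotype tested, and the WT call of Myd88 was lost without either resting DKO array as well.

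Of the IKK complex and related kinases, 2 of 11 rose and 2 fell in DKO and 1 and 2 in WT cells. Tbk1, a kinase of the same family as IKK, rose by 0.77 ± 0.12 in DKO and 0.57 ± 0.12 in WT cells. Map3k14, which triggers the alternative pathway, fell by 1.07 ± 0.16 in DKO and by 0.80 ± 0.16 in WT cells, and Tab1, a partner of the kinase Map3k7, fell by 0.48 in DKO and by 0.46 in WT cells. Map3k8, a kinase held by uncleaved Nfkb1 protein, rose in DKO by 0.72 ± 0.18. The Map3k8 call was kept in the single fit without resting DKO replicate 1 (0.98) and lost without any 1 of the others, its value being 0.46 without resting DKO replicate 2 (adjusted p = 0.139). It was also lost with no brightness filter (0.0672), quantile normalization (0.0595) and an intensity trend (0.053). The DKO calls of Tbk1 and Tab1 were lost without any 1 of the 4 DKO arrays, and that of Map3k14 without either resting DKO array (adjusted p up to 0.0979). In WT cells the calls of Tab1 and Map3k14 held in 2 of the 8 fits, those without an activated DKO array, and that of Tbk1 in 1, without activated WT replicate 1 (adjusted p up to 0.145).

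Other genes close to the inhibitors showed less. In the list of other IkappaB-family and nuclear cofactors 0 of 5 passed by limma in either genotype. At an unadjusted p under 0.05 there was 1 in each, against 31.4% of all genes tested in DKO and 30.4% in WT cells. The smallest p was that of Nfkbid, an IkappaB relative of the nucleus, at 1.40 ± 0.39 in DKO and 1.04 ± 0.39 in WT cells (adjusted p = 0.0613 and 0.136). With the block Nfkbid passed in both (adjusted p = 0.00601 and 0.0179), as it did in DKO under a stricter brightness filter (0.0484). Of the ubiquitin ligases and editors, 1 of 18 rose and 1 fell in DKO (Birc3 at 0.46 ± 0.12 and Itch at -0.59 ± 0.12) and 0 in WT cells. In WT cells 5 of the 18 had an unadjusted p under 0.05, against 30.4% of all genes tested. The Birc3 call was lost whichever cDC2 array was left out (adjusted p from 0.0729 to 0.185), with no brightness filter (0.0569), with quantile normalization (0.0886) and with an intensity trend (0.0587). That of Itch was lost without any 1 of the 4 DKO arrays (up to 0.135), and with the block Itch passed in WT cells too (-0.44, adjusted p = 0.0173). In the group of Card9, Bcl10 and Malt1, Card9 fell by 0.59 in DKO cells. This call was lost without any 1 of the 4 DKO arrays or either resting WT array (adjusted p up to 0.204), and with no brightness filter, quantile normalization, median centring or an offset of 32 (adjusted p from 0.0508 to 0.0643). With the replicate block, 44 of the 78 passed in DKO and 40 in WT cells, while 38% and 35.3% of all genes did.

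**Figure D4:**
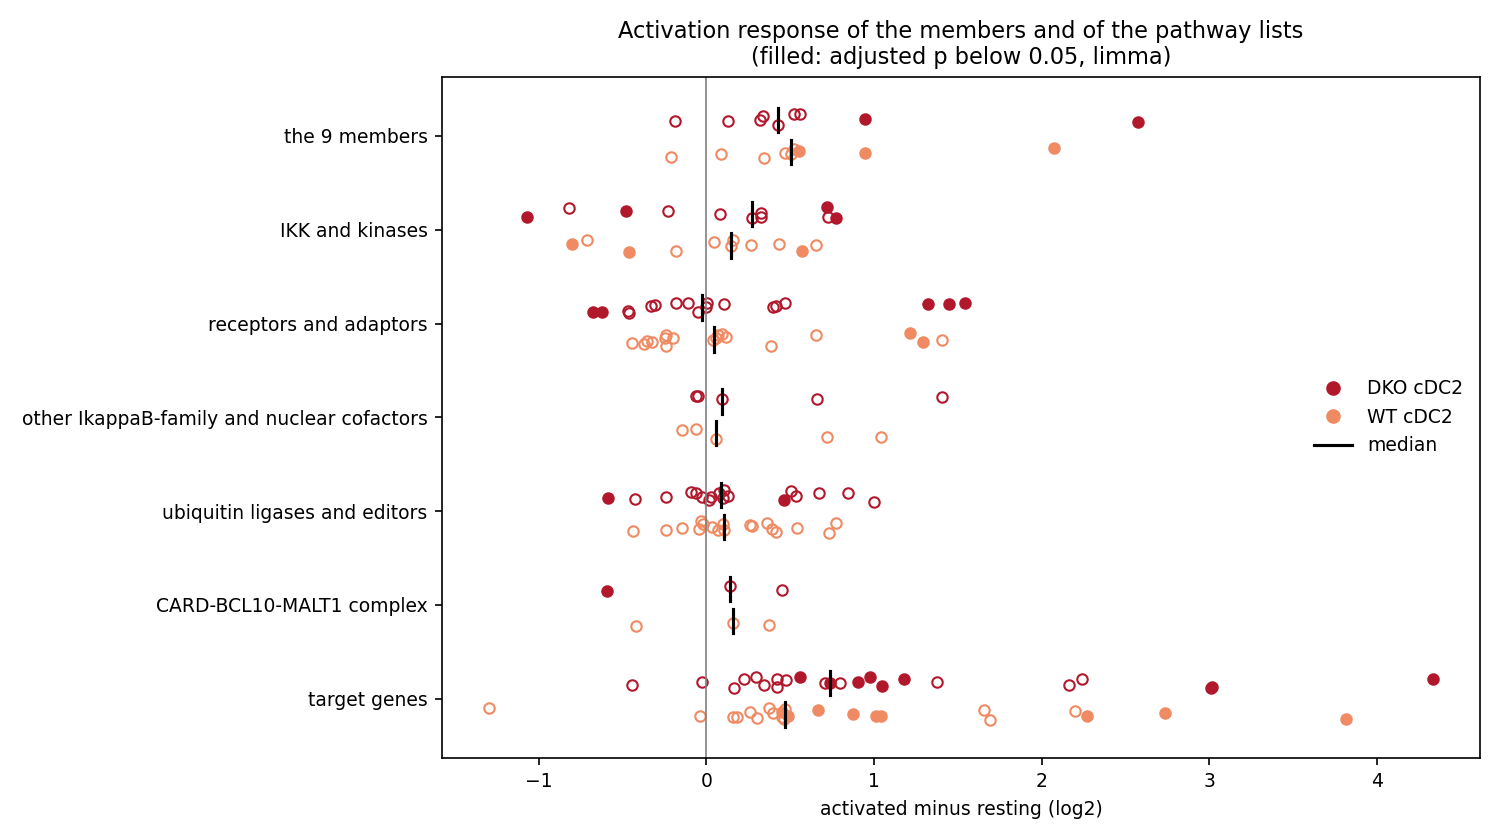
Log2 difference of activated minus resting cDC2 (horizontal axis) for each tested gene of the 9 members and of the 6 pathway lists, with a row for each list and DKO above WT within it; filled points passed adjusted p below 0.05 by limma, short black bars are medians and the long vertical line marks 0. Il6, at 4.33 in DKO and 3.81 in WT cells, is the point farthest right, in the row of target genes.

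In cDC1 against cDC2, 1 of the 78 pathway genes was higher and 15 were lower, against 7.08% and 6.56% of all genes tested. Tbk1 and Tab2 (kinase pathway) fell by 0.62 and 0.44, and Tnfrsf11a, the RANK receptor gene, by 0.94. Ticam2, a bridging adaptor of Tlr4, fell by 0.85 ± 0.16 (adjusted p = 0.0198). Rc3h1, an RNA-binding regulator, fell by 1.15 ± 0.12 (adjusted p = 0.00361), and the prostaglandin synthase gene Ptgs2 fell by 3.04 ± 0.74 (adjusted p = 0.0451). The Ptgs2 call was lost without any 1 cDC2 array other than resting WT replicate 2 (adjusted p up to 0.0816), with no brightness filter (0.0721) and with the offset (0.0759). That of Tab2 was lost whichever cDC2 array was left out (from 0.063 to 0.125), under the stricter filter (0.0518) and with quantile normalization (0.0891). That of Tbk1 held only without an activated WT array (adjusted p otherwise up to 0.103) and was lost with an intensity trend (0.0517). That of Tnfrsf11a was lost without resting WT replicate 2 (0.0607), and that of Ticam2 without resting WT replicate 1 (0.0675). With the block, and the same placement of the cDC1 array, 6 of the 78 were higher and 28 lower. Of all genes tested 15.9% were higher and 17.4% lower in that fit. Nfkbid (-1.13, adjusted p = 0.0264) and Malt1, a protease of the Bcl10 complex (-1.32, adjusted p = 0.000329), were among the lower ones. Without the block, the 1 that rose was Il12b, which stood at 11.58 in cDC1 against 8.94 and 8.04 in resting WT cDC2. It was 3.09 ± 0.35 higher (adjusted p = 0.00472 by limma). The differences of the 9 members were all below 0.

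Between the genotypes 0 of the 78 pathway genes passed by limma, with 4 at an unadjusted p under 0.05 in activated cells, 9 at rest and 10 in the mean of both states. The block fit called genes too, and there the counts past the threshold were 1, 2 and 8. That fit called 0.569%, 0.736% and 5.58% of all genes tested. The genes of smallest p within their own list included the chemokine genes Ccl22 in activated cells (0.41 ± 0.09, adjusted p = 0.517) and Ccl5 at rest (-0.58 ± 0.09, adjusted p = 0.261). Irak2, a kinase downstream of Myd88, stood at -0.81 ± 0.21 in activated cells (adjusted p = 0.592) and at -0.70 ± 0.15 in the mean of both states (adjusted p = 0.188, or 0.0297 with the block). Tnip1, which codes for a partner of the Tnfaip3 protein, stood at 0.27 ± 0.08 at rest (adjusted p = 0.633) and at 0.18 ± 0.06 in the mean (adjusted p = 0.32). Others of smallest p within their list were Map3k8 at -0.38 and Traf5 at -0.27 at rest and Map3k14 at -0.35 in activated cells. Of the 11 tested kinases, which include Map3k8 and Map3k14, 0 had an unadjusted p under 0.05 by limma in either state.

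To describe shape, each gene was compared with all tested genes over the 9 arrays, each gene centred on its mean, by the root mean square difference on the log2 scale. The profile nearest to Nfkbiz was that of Tagap, at 0.20, followed by Slc23a2 at 0.21 and Cst7 at 0.28, set against an SD of 1.31 for Nfkbiz itself. Nearest to Tnfaip3 were Alpk2 at 0.11, Lrp8 at 0.14 and Gm614 at 0.14, with an SD of 0.65. For the other 7 members the nearest 3 profiles each lay between 0.05 and 0.11, set against SDs from 0.25 for Rel to 0.44 for Nfkbie. Nearest to Nfkbia was Agfg1. Nearest to Nfkbie was Cyth1, followed by Prmt2 and Traf6.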

How the data were processed

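RNA of 9 samples was measured on Affymetrix arrays. The kit was one for picogram inputs of total RNA, per the labels' protocols. The authors deposited linear intensity values per transcript cluster. The submitters' processing notes name RMA and Affymetrix Expression Console, and a version is not given in the sources used here. RMA normalizes arrays to a shared distribution, so differences in total RNA are not visible. Array medians lay between 53.4 and 55.6, and the number of arrays limits precision. Log2 was taken of each value. Of 28853 clusters, 21789 carried 1 gene symbol, 1621 several and 5443 none in the platform annotation. Clusters with 1 symbol were used, the brightest per gene (999 of 19938 genes had several). A gene was tested if at least 1 group mean exceeded 61.3, the median of all such values, which left 10728 genes.

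Groups and replicate numbers came from the titles. The test was two-sided limma (version 3.58.1, R 4.3.3, lmFit and eBayes), in 1 fit of 9 arrays with 5 group means and 4 residual degrees of freedom, with Benjamini-Hochberg adjustment over the 10728 genes and adjusted p below 0.05 as the threshold. Over these genes, same-numbered arrays deviated from their group means together in all 6 pairs of cDC2 groups (r from 0.454 to 0.695, across genes, which are not independent), so the numbers, taken from the titles, were held to pair the arrays. The fit with the number as a block, with the cDC1 array midway between the numbers, is given where it changes the call of a member or named gene. Members and pathway lists were chosen with earlier results of these data known. Named pathway genes are those past the threshold with the largest change per list (up to 4 in each direction for activation, up to 2 otherwise), or the 1 of smallest p. The alternatives were the block, other filters, normalizations, an offset, the mean of clusters, an intensity trend, the cDC2 arrays alone and leaving out each array. The scripts were tested on simulated data.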

Additional observations from a re-analysis of the deposited data

How the results depend on the processing

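The limits are few arrays, replicates that may be technical, a lone cDC1 array and RNA alone. When the replicate number entered as a block, genes past the threshold numbered 4080 in place of 1472 for activation in DKO cells, 3791 in place of 1131 for activation in WT cells, 61 in place of 2 for the genotypes in activated cells, 79 in place of 2 at rest, 599 in place of 2 in the mean of both states and 3573 in place of 1464 for cDC1 against cDC2. Of the 9 members, 5 in place of 2, 7 in place of 3 and 7 in place of 3 passed for activation in DKO, activation in WT and cDC1. The block changed no call of a member other than those given beside the values above. With an intensity trend, 1 gene passed in place of 2 for the genotypes at rest. Quantile normalization turned Rel after activation to -0.015 in DKO and -0.049 in WT cells. It also turned the difference between the responses to -0.0086 for Relb and -0.051 for Tnfaip3. Arrays centred on their median turned that of Nfkbia to 0.013 and the genotype difference of Rela in activated cells to 0.0012.

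Leaving out each array in turn left 217 to 1276 genes past the threshold for activation in DKO cells, 63 to 696 in WT cells, 798 to 1155 for cDC1, 0 to 6 for the genotypes at rest, 0 in activated cells and 2 to 4 in the mean of both states, with 0 for the difference between the responses. Members past it numbered 1 to 2 for activation in either genotype and 1 to 3 for cDC1. Relb after activation in WT cells ranged from -0.45 to 0.034. Among differences between the responses, the ranges were -0.23 to 0.23 for Nfkbia, -0.084 to 0.085 for Tnfaip3, -0.073 to 0.16 for Rel, -0.21 to 0.17 for Nfkb2, -0.22 to 0.26 for Relb, -0.28 to 0.38 for Nfkbie, -0.14 to 0.87 for Nfkbid and -0.37 to 0.019 for Card9. Among genotype differences in activated cells they were -0.099 to 0.062 for Rela, -0.13 to 0.034 for Nfkbia, -0.047 to 0.12 for Nfkbib, -0.14 to 0.0945 for Rel, -0.26 to 0.40 for Nfkbie, -0.12 to 0.047 for Tnfaip3, -0.57 to 0.0865 for Malt1 and -0.011 to 0.29 for Nfkbiz. At rest they were -0.010 to 0.25 for Rela, -0.31 to 0.041 for Commd1, -0.28 to 0.18 for Nfkbia, -0.12 to 0.044 for Tnfaip3, -0.0079 to 0.48 for Relb and -0.21 to 0.24 for Nfkbie. In the mean of both states they were -0.0145 to 0.11 for Rela, -0.17 to 0.0015 for Commd1, -0.16 to 0.066 for Nfkbia, -0.080 to 0.0042 for Tnfaip3, -0.10 to 0.013 for Rel and -0.12 to 0.21 for Nfkbie. The cause of these changes was not tested. The fit of the cDC2 arrays alone gives no cDC1 value.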

Other observations

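With the replicate number as a block in the limma fit, 8 of the 78 pathway genes differed between DKO and WT cDC2 in the mean of both states (2 higher and 6 lower), while 5.58% of all genes tested did. Without the block, limma called 0 of the 78, with 10 at an unadjusted p under 0.05 (10.8% of all genes tested). The genes called with the block were named after their values were seen. Lower in DKO were the chemokine genes Ccl3 (-0.98 ± 0.06, adjusted p = 0.00441) and Ccl5 (-0.32 ± 0.06, adjusted p = 0.0398), and Plau, which codes for urokinase (-0.82 ± 0.11, adjusted p = 0.0148). The signalling genes Irak2, a kinase downstream of Myd88 (-0.70 ± 0.12), Tnfrsf1a (-0.42 ± 0.07) and Malt1 (-0.28 ± 0.06) were lower as well. Birc2, a ubiquitin ligase of TNF receptor signalling (0.45 ± 0.09, adjusted p = 0.037), and the chemokine gene Ccl22 (0.32 ± 0.06, adjusted p = 0.0376) were higher. Irak2 read 8.20 and 7.88 in activated DKO cDC2, against 9.13 and 8.56 in activated WT cDC2, and 8.41 and 8.60 in resting DKO cDC2, against 9.16 and 9.02 in resting WT cDC2. The DKO arrays were below the WT arrays in both states. Marker lists of other cells differed as well, each with 0 tested members past the threshold by limma in the mean of both states. The monocyte markers summed to 320 to 364 in activated DKO arrays against 438 to 558 in activated WT arrays, and to 454 to 529 in resting DKO arrays against 579 to 755 in resting WT arrays. The macrophage markers, which share Vcam1 with the target genes, summed to 716 to 856 in activated DKO against 863 to 914 in activated WT arrays and overlapped at rest. Their mean log2 intensity at rest was 6.41 to 6.59 in DKO against 6.72 to 6.90 in WT arrays. By mean log2 intensity the plasmacytoid list was lower in DKO in both states (at rest 7.38 to 7.64 against 7.84 to 8.24). So was the cDC1 list (at rest 6.04 to 6.28 against 6.30 to 6.51). Its summed intensity was higher in activated DKO arrays, at 2362 to 2780 against 1957 to 2101 in WT. The neutrophil list was higher in DKO at rest (6.15 to 6.20 against 6.02 to 6.11). The part of these lists in the result was not tested.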
